A study of Mus musculus with 10 samples.

Results

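The 8 genes *Slc2a2*, *Gckr*, *Khk*, *Gpi1*, *Pfkl*, *Pfkfb1*, *Eno1* and *Pklr* encode proteins that bring glucose and fructose into the liver cell and carry them through glycolysis. They were taken from the deposited expression table by gene symbol, each as a single Ensembl gene, and are 8 of its 15126 genes. RNA-seq was performed on livers of leptin receptor-deficient (*db/db*) mice, a genetic model of obesity and diabetes. The levels described are those of the *db/db* AAV8-Control group (5 livers), which received adeno-associated virus 8 (AAV8) encoding eGFP, a fluorescent protein. Virus was given into the tail vein, and the mice were 10 weeks old at collection, 5 weeks after infection. All 5 mice thus carried the *db/db* genotype and a viral vector, and no lean or uninjected liver is compared here. The promoter of the vector is not given in the sources used here. The sample labels call the material both liver and primary hepatocytes and also describe an adenovirus given to cultured cells, whereas the study describes the sequenced material as liver, which is the reading followed here.

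Hepatocytes take up glucose and fructose through GLUT2 (*Slc2a2*), a transporter that works in both directions. A nuclear regulatory protein (*Gckr*) restrains the phosphorylation of glucose when glucose is low. Fructose takes another way in: ketohexokinase (*Khk*) makes fructose 1-phosphate, which bypasses phosphofructokinase. When glucose is plentiful, the transcription factor ChREBP (*Mlxipl*) acts on carbohydrate response elements, which are pairs of E-box-like sequences, and liver pyruvate kinase (*Pklr*) is its textbook target.

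RefSeq promoter sequence of GRCm38.p6 was searched for such elements in the 250 bases before each transcript start, and 2 stretches are shown, of *Pklr*, which varied most between livers of the 8 genes, and of *Khk*, which had the highest level. All 8 genes were found there, with 14 starts in all. The letters searched, on both strands, were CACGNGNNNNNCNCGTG for the carbohydrate response element, CACGTG for the E-box, TATAAA for the TATA box and CAAAGTCCA for an HNF4 site. An E-box can lie within a carbohydrate response element, and would then count for both. The *Pklr* stretch shown is chr3:89136373-89136571 on the forward strand, ahead of the downstream start, which the liver isoform uses. The *Khk* stretch is chr5:30921476-30921505 on the forward strand. Capitals mark the carbohydrate response element in *Pklr* and the E-box in *Khk*.
Pklr: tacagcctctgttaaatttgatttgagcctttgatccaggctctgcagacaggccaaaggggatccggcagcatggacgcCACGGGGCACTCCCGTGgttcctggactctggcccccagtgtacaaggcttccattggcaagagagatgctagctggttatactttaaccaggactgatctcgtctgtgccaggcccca
Khk: agcgttccccgtCACGTGacaccgttaatc
The element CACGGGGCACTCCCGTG began 170 bases before the downstream *Pklr* start, and a TATA box began 31 bases before it. Of 32851 promoters in the RefSeq set, 13 held the element in the same window, or 0.0396%. The *Khk* E-box began 71 bases before its start, and 6.02% of promoters held an E-box. TATAAA was found in 12.4% of promoters and the HNF4 letters in 0.384%. TATAAA also began 193 bases before 1 of the 4 *Pfkfb1* starts, and the windows of *Slc2a2*, *Gckr*, *Gpi1*, *Pfkl* and *Eno1* held none of the 4 sets of letters. These matches describe the sequence only, as binding was not measured.

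Libraries held 19499795 to 35498596 counted reads, and the fewest reads behind any value of the 8 genes were 670, for *Pfkfb1*. Levels are given as deposited, in CPM (reads scaled to the total counted on genes), and each liver is named by its replicate number. Levels of single genes are set against each other per kb of exon (CPM per kb), and for some pairs also in CPM. Marker sums are given in CPM. Summed hepatocyte markers, 6 of 6 listed, ranged from 96435 to 131581 CPM. The other sums were 92.7 to 187 CPM for 6 macrophage, 82.7 to 166 CPM for 5 endothelial, 75.4 to 131 CPM for 6 stellate, 33.5 to 53.9 CPM for 5 cholangiocyte and 262 to 327 CPM for 5 erythroid markers. Adipocyte markers (4) summed to 1.24 to 11.6 CPM, while muscle markers (3 of 5 listed) stayed at or below 0.870 CPM and the 6 lymphocyte markers at or below 2.70 CPM. *Lep*, *Acta1*, *Myh4* and *Ms4a1* were each at 0 in at least a single liver. The part of these markers in the results was not tested. In bulk liver, fewer cells of a type and less RNA per cell cannot be told apart.

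**Figure D1:**
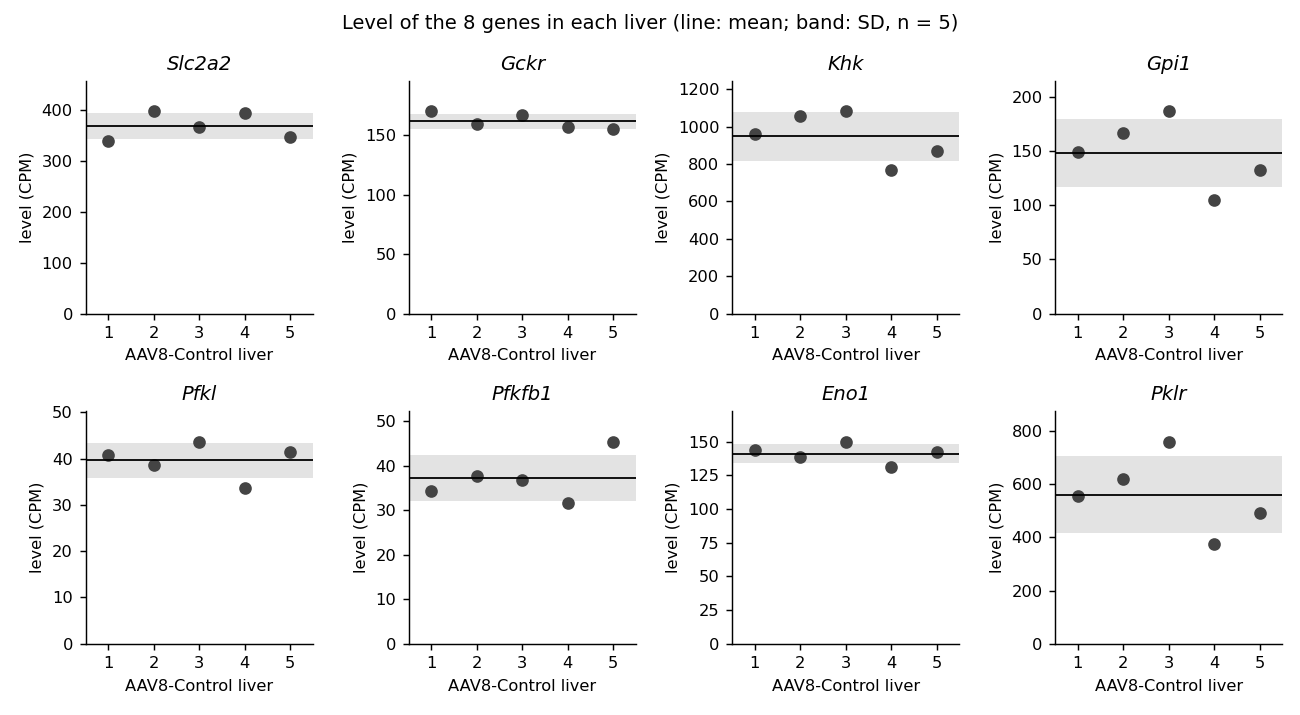
Level of each of the 8 genes in CPM (vertical axes, from 0) in AAV8-Control livers 1 to 5 (horizontal axes), with the mean as a line and the SD as a band (n = 5). *Gckr* and *Eno1* lie nearly level across the livers, whereas *Pklr* runs from 374 CPM in liver 4 to 760.2 CPM in liver 3.

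The RNA of *Slc2a2* and *Gckr* stayed within 1.17 and 1.09 times between the lowest and the highest liver. *Slc2a2* (ENSMUSG00000027690, chr3:28697903-28731359, forward strand, GRCm38) gave 340.1, 398, 367, 393 and 348 CPM in livers 1 to 5, a mean of 369 ± 26.0 CPM (SD, n = 5). Liver 2 was the highest and liver 1 the lowest, which no other of the 8 genes showed. *Gckr* (ENSMUSG00000059434, chr5:31297443-31327314, forward strand) gave 170.1, 159.5, 167, 157 and 155 CPM, with a mean of 162 ± 6.25 CPM (SD, n = 5). Its coefficient of variation (CV, the SD as a percent of the mean) was 3.86%, the lowest of the 8 genes. Of the 11041 genes averaging 1 CPM or more, not matched for level, 4.88% had a lower CV.

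*Khk* (ENSMUSG00000029162, chr5:30921431-30931248, forward strand) was the most abundant of the 8 genes. It measured 959, 1057, 1082, 767 and 872 CPM in livers 1 to 5, a mean of 947 ± 131 CPM (SD, n = 5). Livers 2 and 3 were high and liver 4 low. Per kb of exon, its mean of 527 CPM per kb placed it 79th of the 15119 genes with an exon length.

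*Gpi1* (ENSMUSG00000036427, chr7:34201330-34230336, reverse strand) encodes glucose-6-phosphate isomerase, which links glucose 6-phosphate to fructose 6-phosphate. Its levels were 149, 167, 187, 105 and 132 CPM in livers 1 to 5, a mean of 148 ± 31.4 CPM (SD, n = 5). The highest liver held 1.78 times the lowest. A gene on the opposite strand and similar copies share 15.8% of the 50-base stretches of its transcripts, and reads that align equally well to a copy are not in its value. Reads in the overlap with the opposite strand were either assigned by strand or left out.

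At the phosphofructokinase step, 2 of the 8 genes had the lowest levels per kb of exon, 5.94 CPM per kb for *Pfkl* and 9.26 CPM per kb for *Pfkfb1*. *Pfkl* (ENSMUSG00000020277, chr10:77986947-78010083, reverse strand), the liver subunit of phosphofructokinase, gave 40.8, 38.7, 43.7, 33.7 and 41.4 CPM, a mean of 39.6 ± 3.76 CPM (SD, n = 5). *Pfkfb1* (ENSMUSG00000025271, chrX:150588229-150643878, forward strand) encodes the liver form of the enzyme that both makes and breaks down fructose 2,6-bisphosphate, the strongest activator of phosphofructokinase. It gave 34.4, 37.7, 36.9, 31.6 and 45.4 CPM, a mean of 37.2 ± 5.19 CPM (SD, n = 5), with liver 5 above the rest. Both genes were lowest in liver 4.

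In lower glycolysis, *Eno1* was steady and *Pklr* was not. *Eno1* (ENSMUSG00000063524, chr4:150236721-150248879, forward strand), an enolase, gave 144, 138, 150.1, 131 and 142 CPM, a mean of 141 ± 6.96 CPM (SD, n = 5). Copies such as *Eno1b* share 26.0% of its 50-base stretches, and since only uniquely aligned reads were counted, reads that align equally well to a copy are not in its value. How far this lowers the level of *Eno1* was not measured. *Pklr* (ENSMUSG00000041237, chr3:89136142-89146784, forward strand) encodes the pyruvate kinase of liver and red cells, which catalyses the last, ATP-forming step of glycolysis. Its levels in livers 1 to 5 were 556, 619, 760.2, 374 and 493 CPM, a mean of 561 ± 144 CPM (SD, n = 5). Liver 3 held 2.03 times the level of liver 4, the widest span of the 8 genes.

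Exons of *Pklr* overlap the channel gene *Hcn3*, which lies on the opposite strand, and 20.5% of the 50-base stretches of *Pklr* transcripts also belong to *Hcn3*. Only uniquely aligned reads that were unambiguous between genes were counted, per the study's methods, and the strand setting is not given in the sources used here. Reads of this stretch were thus either assigned by strand or left out of both genes. *Hcn3* measured 31.5 to 60.7 CPM, lowest in liver 4 and highest in liver 3 as *Pklr* was. The part of this overlap in the *Pklr* value was not tested.

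Per kb of exon, the order of the means was *Khk* (527 ± 72.7 CPM per kb), *Pklr* (173 ± 44.4), *Slc2a2* (64.2 ± 4.51), *Gckr* (37.3 ± 1.44), *Eno1* (26.3 ± 1.29), *Gpi1* (22.9 ± 4.87), *Pfkfb1* (9.26 ± 1.29) and *Pfkl* (5.94 ± 0.564; SD, n = 5). For 6 of the 7 pairs of neighbours in this order, the ranges did not overlap. *Eno1* and *Gpi1* were the exception, since their ranges overlapped and *Eno1* was the higher in 3 of 5 livers. The order depends on the exon lengths. In CPM, the mean of *Gpi1* (148) stood above that of *Eno1* (141), and that of *Pfkl* (39.6) above that of *Pfkfb1* (37.2). The ranges of *Pklr* (374 to 760 CPM) and *Slc2a2* (340 to 398 CPM) then overlapped.

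**Figure D2:**
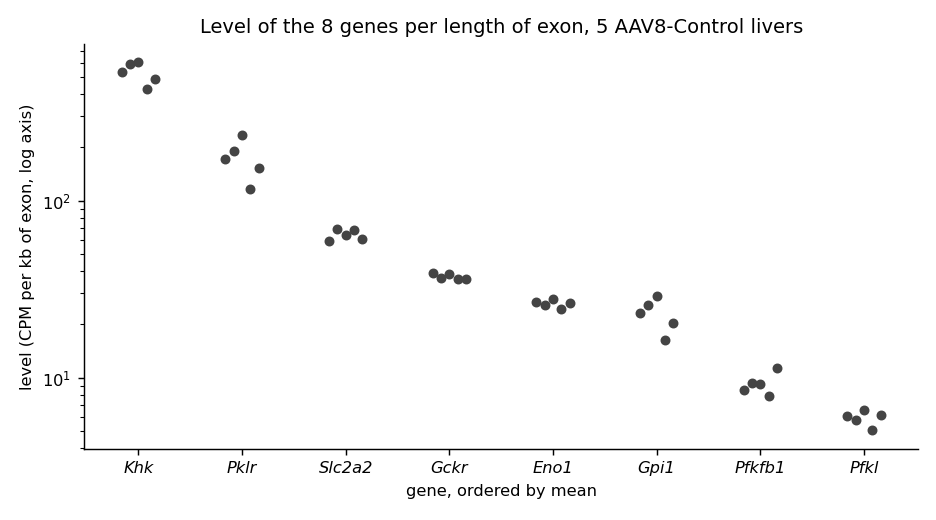
Level per length of exon (CPM per kb, log axis) of the 8 genes in the 5 AAV8-Control livers, in the order of the means. Each point is a liver. *Khk* stands highest at 427 to 602 CPM per kb and *Pfkl* lowest at 5.05 to 6.54 CPM per kb, and only the points of *Eno1* and *Gpi1* overlap between neighbours.

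Liver 4 was the lowest for 6 of the 8 genes, all but *Slc2a2* and *Gckr*, as it was for 31.7% of the 11041 genes averaging 1 CPM or more. Liver 3 was the highest for 5 of the 8, *Khk*, *Gpi1*, *Pfkl*, *Eno1* and *Pklr*, as it was for 15.8% of those genes. Over the whole table, libraries 3 and 4 had the highest chi-square per degree of freedom of any pair, 116, beside 15.9 to 64.5 for the other pairs. This value was computed on reads and grows with depth, in which libraries 3 and 4 also stood highest. *Khk*, *Gpi1* and *Pklr* ranked the livers alike, from liver 3 through livers 2, 1 and 5 to liver 4, an order that 1.39% of those genes had. In liver 4, *Pklr* was at 66.7% of its mean, *Gpi1* at 71.0% and *Khk* at 81.0%, whereas *Slc2a2* was at 107% and *Gckr* at 97.2%. In liver 3, *Pklr* was at 136%, *Gpi1* at 126% and *Khk* at 114%. *Tkfc*, the triokinase that follows in fructose use, had this order of livers too, with 1219 CPM in liver 3 and 740.5 CPM in liver 4. So did *Pkm*, another pyruvate kinase (16.1 and 10.4 CPM in livers 3 and 4), and *Pfkfb4*, a relative of *Pfkfb1* (1.46 and 0.437 CPM). *Pck1*, which encodes an enzyme of glucose production, was highest in liver 4 at 2818 CPM and lowest in liver 3 at 1307 CPM. *Pck2* was also highest in liver 4 (3.68 CPM) and lowest in liver 3 (2.90 CPM). In contrast, 3 genes of glucose production were lowest in liver 4, with 1722 CPM for *Fbp1*, 399 CPM for *G6pc* and 538 CPM for *Pcx*, and *Pcx* was highest in liver 3 at 775 CPM. Livers 3 and 4 also had the deepest libraries, and 5 livers are too few for a correlation, so these orders are given as a description.

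**Figure D3:**
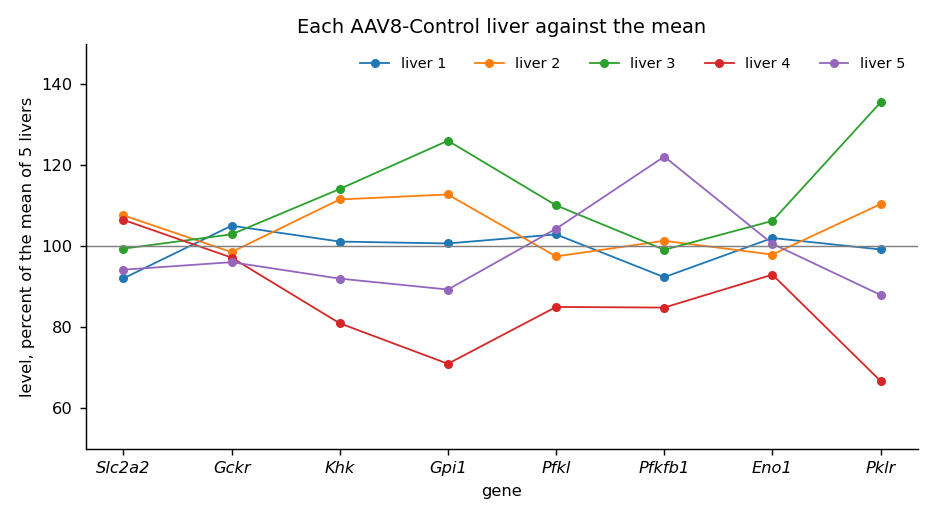
Level of each of the 8 genes in each AAV8-Control liver as a percent of the mean of the 5 livers (vertical axis), with a coloured line for each liver. Liver 4 lies below 100 for all genes except *Slc2a2*, down to 66.7% for *Pklr*, and liver 3 reaches 136% for *Pklr*.

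Among all 11041 genes averaging 1 CPM or more, the median CV was 10.6%, and 4 of the 8 genes were below it. Genes near 1 CPM have few reads, which widens their CV, and these genes were not matched to the 8 for level. Those below the median were *Gckr* (3.86%), *Eno1* (4.93%), *Slc2a2* (7.03%) and *Pfkl* (9.49%). The same 4 genes were below the median with DESeq2 size factors (median 10.1%) and TMM factors (median 10.1%), where *Slc2a2* (9.50% and 9.70%) lay above *Pfkl* (8.65% and 8.59%). With CPM as deposited, above it lay *Khk* (13.8%), *Pfkfb1* (14.0%), *Gpi1* (21.2%) and *Pklr* (25.6%). Of the 11041 genes, 90.0% had a lower CV than *Pklr*. With each liver left out in turn, *Gckr*, *Eno1* and *Slc2a2* stayed below the median of all genes and *Gpi1* and *Pklr* above it, while the other 3 genes changed sides. *Khk* fell below the median without liver 4 (CV 9.70%, median 9.85%), and *Pfkfb1* did without liver 5 (7.87%, median 10.7%). *Pfkl* lay above it without liver 1 (10.9%, median 9.36%) and without liver 5 (10.71%, median 10.66%), and its CV was 4.99% without liver 4.

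*Slc2a2*, *Pklr*, *Eno1*, *Pfkl* and *Pfkfb1* belong to families with other forms and were set beside them per kb of exon. *Slc2a2* exceeded each of 9 other hexose carriers in 5 of 5 livers. The next was *Slc2a9*, a urate carrier, at 11.6 ± 0.494 CPM per kb (SD, n = 5), and *Slc2a2* stood 4.91 to 5.98 times above it in each liver. *Slc2a5*, the intestinal fructose carrier, measured 2.77 ± 0.678 CPM per kb (SD, n = 5). *Pklr* exceeded *Pkm*, the pyruvate kinase of muscle and dividing cells, by 55.5 to 72.8 times in each liver. *Eno1* was 11.3 to 16.4 times above *Eno3*, the muscle enolase, while *Eno2* was at or below 0.041 CPM per kb and at 0 in a single liver. *Eno1b* was at or below 0.097 CPM per kb, but it is among the copies that share sequence with *Eno1*, so with only uniquely aligned reads counted its level is not comparable with that of *Eno1*.

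Per kb of exon, the phosphofructokinase step was less one-sided. *Pfkl* and the muscle subunit *Pfkm* had means of 5.94 and 5.40 CPM per kb, their ranges overlapped, and *Pfkl* was the higher in 4 of 5 livers. The platelet subunit *Pfkp* was far lower, at 0.168 ± 0.048 CPM per kb (SD, n = 5). *Pfkfb1* was 6.11 to 9.87 times above *Pfkfb2* and 6.32 to 11.5 times above *Pfkfb3* in each liver, and *Pfkfb4* averaged 0.205 CPM per kb.

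**Figure D4:**
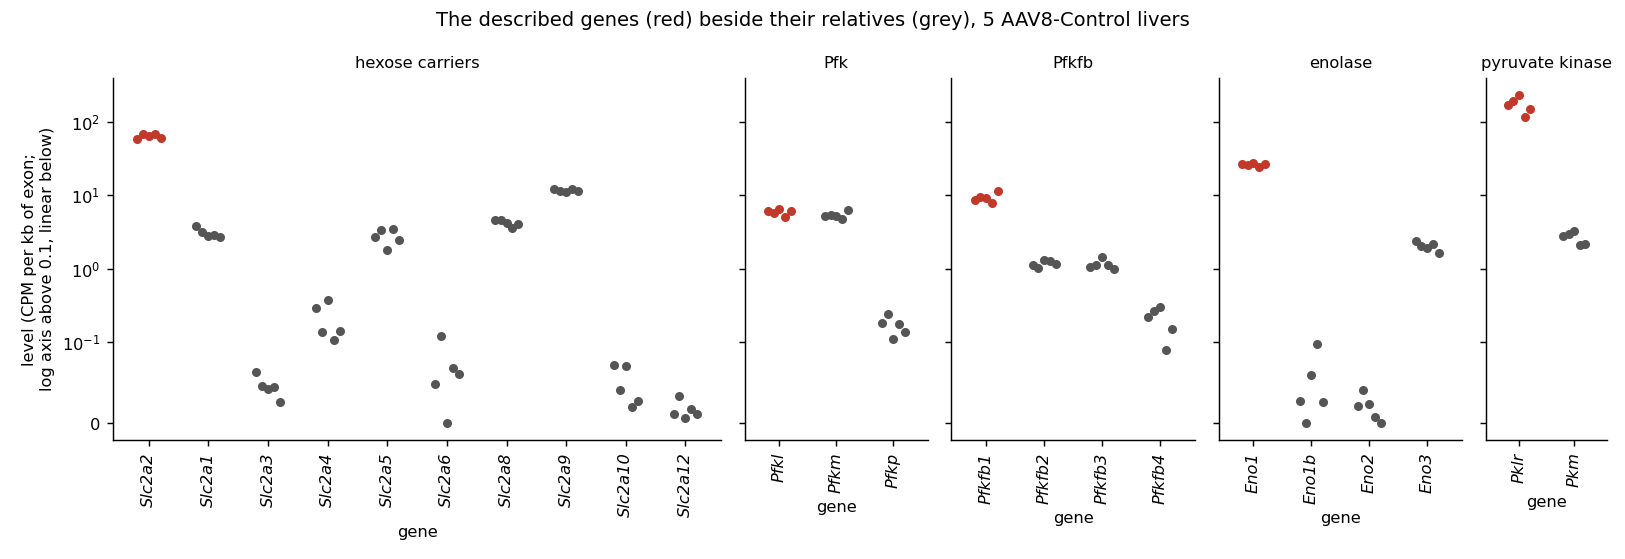
Level per length of exon (CPM per kb, log axis above 0.1 and linear below) of *Slc2a2*, *Pfkl*, *Pfkfb1*, *Eno1* and *Pklr* (red) beside their relatives (grey) in the 5 AAV8-Control livers, livers 1 to 5 from left to right for each gene. The red points lie above the grey ones in each panel except that of the phosphofructokinase subunits (Pfk), where *Pfkl* and *Pfkm* overlap.

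Of the genes of the steps that run the other way, *Fbp1*, *Pck1*, *Pcx* and *G6pc* had high levels, and *Fbp2* (0.087 CPM per kb) and *Pck2* (0.43 CPM per kb) had low ones, under *Pfkl* and *Pklr* in 5 of 5 livers. *Fbp1*, the fructose bisphosphatase that opposes phosphofructokinase, averaged 1095 ± 86.3 CPM per kb (SD, n = 5), beside 5.94 for *Pfkl*. *Pck1* averaged 576 ± 165 CPM per kb (SD, n = 5), above *Pklr* in 5 of 5 livers. *Pcx*, pyruvate carboxylase, averaged 146 ± 19.0 CPM per kb (SD, n = 5), below *Pklr* in 5 of 5 livers although the ranges overlapped. In CPM this was reversed, with *Pcx* above *Pklr* in each liver and means of 692 and 561 CPM. *G6pc*, which encodes the glucose-releasing phosphatase, averaged 182 ± 16.1 CPM per kb (SD, n = 5), above *Gpi1* in 5 of 5. *Pgm2*, a phosphoglucomutase gene, averaged 57.8 ± 3.68 CPM per kb (SD, n = 5) and was also above *Gpi1* in 5 of 5. In CPM, *Pgm2* (159 to 184 CPM) and *Gpi1* (105 to 187 CPM) overlapped, and *Gpi1* was the higher in liver 3. *Pgm1* (1.87 CPM per kb) and *G6pdx* (2.03 CPM per kb), also set beside *Gpi1*, were below it in 5 of 5. In fructose use, *Khk* per kb was 2.28 to 2.66 times above *Tkfc* and 1.07 to 1.69 times above *Sord*, which makes fructose from sorbitol, in each liver. In CPM the means were close, at 947 CPM for *Khk*, 964 CPM for *Tkfc* and 893 CPM for *Sord*. *Tkfc* was then above *Khk* in livers 1 and 3, and *Sord* was above it in livers 1 and 4. Levels of RNA do not give the activity of these enzymes.

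Of the regulators known for liver glycolytic genes, *Mlxipl* (ChREBP) averaged 307 ± 47.8 CPM and ranged from 257 CPM in liver 4 to 376 CPM in liver 1. *Srebf1*, a lipogenic factor that responds to insulin, averaged 341 ± 116 CPM, lowest in liver 4 (206 CPM) and highest in liver 1 (479 CPM). *Hnf4a*, a hepatocyte factor, averaged 618 ± 67.1 CPM, and *Mlx*, the partner of ChREBP, 28.9 ± 1.72 CPM (SD, n = 5 each). Liver 4 was lowest for 3 of these 4 regulators and not for *Hnf4a* (603 CPM, above livers 2 and 5), whereas liver 3, the highest for *Pklr*, was the highest for *Mlx* (30.8 CPM) and not for *Mlxipl* or *Srebf1*. Liver 1, the highest for both of these, was the highest for 37.8% of the 11041 genes averaging 1 CPM or more, the largest share of the 5 livers.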

How the data were processed

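RNA-seq of 5 AAV8-Control livers was analyzed, and the other group of the series and some genes are not reported here. Per the labels and the study's methods, the authors aligned single reads of 50 bases with STAR 2.0.4b to GRCm38 and counted reads that were uniquely aligned and unambiguous with featureCounts 1.4.5. The deposited values are CPM, computed by the authors from all reads counted on genes, and 15126 protein-coding genes are listed. Whole reads were recovered from the CPM of a single read, and in the library with the lowest share 99.99% of values came out whole (tolerance 0.01 reads).

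Levels were described by mean and SD over livers, with no test between groups and no model across genes. CPM was divided by the joined length of all annotated exons of a gene (GENCODE M21) to compare genes. Which exons the liver transcripts use was not measured, so comparisons per kb depend on this length. Ranks used the 15119 genes with an exon length, and CVs the 11041 genes averaging 1 CPM or more. Libraries are taken as separate mice. The alternatives, chosen after seeing the data, were DESeq2 1.42.0 size factors, TMM factors (edgeR 4.0.16, R 4.3.3) and each liver left out. Promoters came from RefSeq. Members, relatives and marker genes were chosen with earlier results of these data known, and the relatives and regulators were named after their values were seen.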

Additional observations from a re-analysis of the deposited data

Results flagged for a closer look

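In the group of 5 livers, a liver was singled out where its gap to the nearest other, divided by the range of the group, exceeded Dixon's critical value of 0.71. Of 42 genes, 2 held such a liver, and chance gives about 1 in 20. *Pfkfb3* measured 11.0 CPM in AAV8-Control liver 3 and 7.44 to 8.42 CPM in the other 4, with a ratio of 0.724. *Hnf4a* measured 735 CPM in AAV8-Control liver 1 and 573 to 608 CPM in the others (0.784). None of the 8 genes described held such a liver.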

How the results depend on the processing

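DESeq2 size factors and TMM factors moved the mean levels of the 8 genes by -0.092% to 0.18%. Leaving out a single liver moved them by -8.89% to 8.32%, with both extremes in *Pklr*, for which livers 3 and 4 set the range. The order of the 8 genes per kb was the same in 7 of 7 alternatives. None of these changed the exon length, and scaling factors move all genes of a library alike. Leaving out 1 of 5 livers can move a mean by only a fraction of its SD. The order in CPM differed, as given above. The CV of *Slc2a2* went from 7.03% to 9.50% with DESeq2 size factors and 9.70% with TMM factors, and that of *Gckr* from 3.86% to 2.76% and 2.71%. The count of the 8 genes with a CV under the median of all genes was 4, and 3 to 5 with a liver left out. No paired analysis was possible because a single group is reported here and the comparison between groups was left out. The alternatives that bear only on that comparison (another pseudocount, no filter, edgeR, DESeq2 and the replicate number as a block) were left out with it.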
